A study of Arabidopsis thaliana with 3 samples.

Results

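The genes described here are 5 Arabidopsis thaliana genes for enzymes of jasmonate synthesis (LOX2, AOS, AOC1, AOC2 and OPR3) and the 2 genes for vegetative storage proteins (VSP1 and VSP2). They were chosen by locus: every array spot whose identifier begins with the locus code of a member was taken, and the spots of a locus were averaged on each array. This gave 7 of 29030 loci, carried by 16 of 38613 spots with a locus code. RNA of pfd4 plants, mutant for subunit 4 of the cytosolic chaperone complex prefoldin, was hybridised against RNA of Col-0 wild-type plants on 3 dual-dye arrays. All plants had grown for 2 weeks at 22 °C under a photoperiod of 16 h light to 8 h dark before they spent 24 h at 4 °C. No plants kept at 22 °C were compared, so a value sets the genotypes against each other in the cold and does not measure a response to cold. The labels name the mutant only as pfd4 and give neither the allele nor the organs harvested nor the number of plants behind an RNA. Each array carries the same label, biological replicate 1 of 3; the arrays were numbered by their titles and taken as 3 separate biological samples, and every SD and p-value rests on that.

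Jasmonates are lipid-derived hormones of wounding, defence against insects and fungi, and flower fertility. In the plastid, linolenic acid released from membrane lipids is oxygenated by a 13-lipoxygenase such as LOX2, converted to an unstable epoxide by allene oxide synthase (AOS) and closed to a ring by an allene oxide cyclase (AOC1, AOC2 and their relatives), which gives 12-oxophytodienoic acid (OPDA). In the peroxisome OPR3 reduces OPDA, and beta-oxidation shortens the side chain to jasmonic acid. Its isoleucine conjugate binds the receptor COI1, which marks JAZ repressors for breakdown and frees MYC2 and related factors. VSP1 and VSP2 encode leaf storage proteins of the acid phosphatase family and are widely used as readouts of that branch; the synthesis genes are themselves induced by the hormone.

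Every value is a log2 ratio of pfd4 over Col-0 within an array, so a negative value means less transcript in pfd4. This direction is likely, not certain. Since no label states which channel was divided by which, it rests on the transcript of the mutated gene, PFD4 (AT1G08780), at -3.08, -2.71 and -2.17 on arrays 1, 2 and 3. Turning the sign of array 3, an alternative given below, would make PFD4 positive there, unlike on arrays 1 and 2. Cy3 marked the pfd4 RNA on arrays 1 and 2 and the Col-0 RNA on array 3, with Hyper5 on the partner. Array 3 stood apart: across the 29030 loci, which share arrays and labelling and are not independent, its Pearson correlation was -0.269 with array 1 and -0.035 with array 2, whereas arrays 1 and 2 reached 0.401 (Spearman's rho of -0.245, -0.07 and 0.359). Array 2 had the widest ratios, with an SD across loci of 0.554, against 0.362 on array 1 and 0.374 on array 3. Ratios hold no level, so the labelled plant material could not be checked by the presence of marker transcripts, and members cannot be ranked by abundance. Fewer cells of a type and less RNA per cell cannot be told apart in RNA of whole samples.

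Of the 7 members, 6 had a mean ratio below 0, as 48.4% of all loci did, and AOC2 lay at 0. LOX2, OPR3 and VSP1 were negative on all 3 arrays, which held for 12.1% of all loci, and no member was positive on all 3. The median of the member means was -0.50, against 0.01 over all loci. Since the members were chosen with earlier results of these data known, that difference was not tested. No member passed limma's test after Benjamini-Hochberg adjustment over all loci, where 0 of 29030 loci (0.0%) reached the threshold of 0.05 and the best locus had 0.314. At an unadjusted p under 0.05 in limma, LOX2 and VSP1 were lower, 2 of 7, where 750 of 29030 loci (2.58%) were lower and 622 (2.14%) higher. That count changed with the arrays used: VSP1 and AOS were below 0.05 without replicate 1, LOX2 alone without replicate 2, and VSP2 alone both without replicate 3 and after turning array 3. The values of the 7 members are given below as measured, and none of them is called changed.

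**Figure D1:**
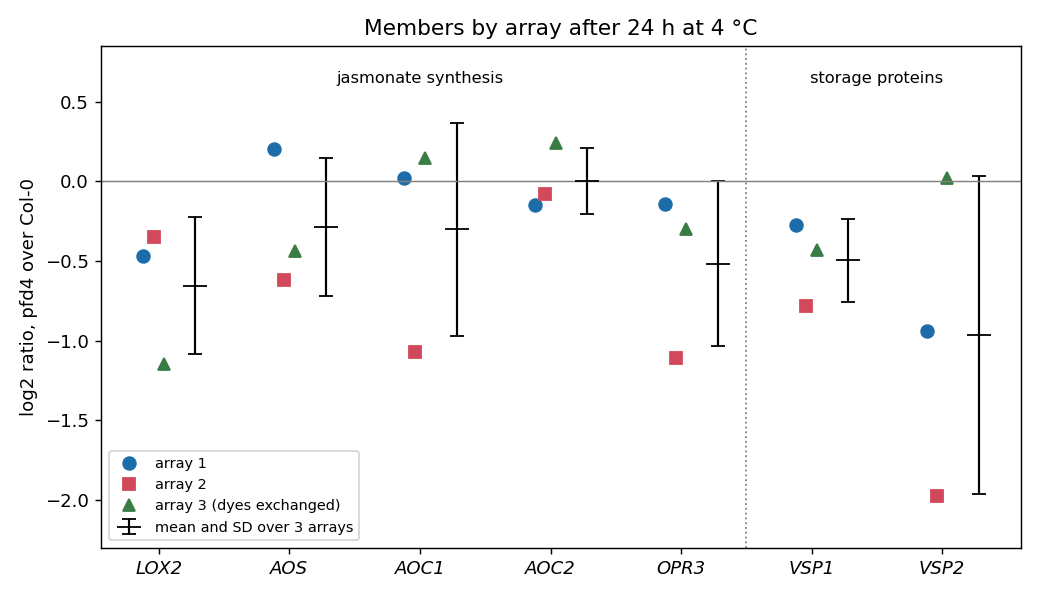
Log2 ratio of pfd4 over Col-0 (vertical axis) for the 5 synthesis genes and the 2 storage protein genes, with 1 symbol per array and a bar for the mean with its SD over the 3 arrays. LOX2, OPR3 and VSP1 lie below 0 on every array, VSP2 ranges from -1.975 on array 2 to 0.02 on array 3, and AOC2 stays near 0.

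LOX2 (AT3G45140), the lipoxygenase that opens the pathway in leaves, had log2 ratios of -0.47, -0.35 and -1.145 on arrays 1, 2 and 3. It was negative on every array and was the only member whose lowest value fell on array 3, where 0.899% of loci lay lower. Its mean was -0.655 ± 0.43 (SD, n = 3), a level 1.57-fold lower in pfd4, with a 95% interval of limma from -1.18 to -0.13 (unadjusted p = 0.024, adjusted p = 0.887). The mean was -0.75 without replicate 1, -0.81 without replicate 2, -0.41 without replicate 3 and -0.78 with a dye term. With the sign of array 3 turned it was 0.11. The locus has 4 spots of 1 identifier, and 11 of the 12 values on them were negative. The exception was 1 spot at 0.36 on array 2, where the other 3 lay between -0.67 and -0.44. A transcript without a locus code that the annotation names after AtLOX2 (AV805327) lay at 0.48, 0.15 and 0.02, above 0 on every array and unlike the 4 spots of the locus. With AV805327 added to those spots, an alternative chosen after seeing the data, LOX2 had a mean of -0.48 instead of -0.655.

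AOS (AT5G42650), the cytochrome P450 that makes the epoxide, had a single spot with log2 ratios of 0.20, -0.62 and -0.44. It was above 0 on array 1 and below on the other two, and its mean of -0.29 ± 0.43 (SD, n = 3) lay within that spread (adjusted p = 0.889 in limma). The mean was -0.53 without replicate 1, -0.12 without replicate 2 and, once array 3 was turned, 0.01.

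The cyclase genes AOC1 (AT3G25760) and AOC2 (AT3G25770) are direct neighbours among the protein-coding genes of the RefSeq table, followed by AOC3. AOC1 had log2 ratios of 0.02, -1.07 and 0.145, low on array 2 and slightly above 0 on the other two. The mean was -0.30 ± 0.67 (SD, n = 3; adjusted p = 0.921 in limma), smaller than its SD; it was -0.46 without replicate 1, 0.08 without replicate 2 and -0.525 without replicate 3. Its 2 spots disagreed: one had -0.31, -1.68 and 0.47, the other 0.35, -0.46 and -0.18, and only on array 2 did both have the same sign. AOC2, with 1 spot, had -0.15, -0.08 and 0.24 and a mean of 0.00 ± 0.21 (SD, n = 3). Within arrays AOC1 minus AOC2 was 0.17, -0.99 and -0.095, a mean difference of -0.305 ± 0.61 (SD, n = 3; two-sided exact permutation p = 0.75 by sign changes over arrays, where 3 arrays cannot go below 0.25). As these are related genes, whether their spots take up each other's transcript was not tested. The third cyclase gene of the cluster, AOC3, had -0.33, -0.42 and 0.19, and AOC4, which lies elsewhere, had -0.70, -0.41 and 0.77.

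OPR3 (AT2G06050), the peroxisomal reductase on which jasmonate synthesis in stamens depends, had log2 ratios of -0.14, -1.11 and -0.30. All 3 arrays were negative, array 2 by far the most, where 3.21% of loci lay lower. The mean was -0.52 ± 0.52 (SD, n = 3), a level 1.43-fold lower in pfd4, with a 95% interval from -1.12 to 0.08 (unadjusted p = 0.0766, adjusted p = 0.887 in limma). Without replicate 2 it was -0.22, and turning array 3 made it -0.32. The 2 spots, which stand for different transcript models, agreed closely on array 2 at -1.09 and -1.13, and both were negative on arrays 1 and 3 as well.

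VSP1 (AT5G24780) had log2 ratios of -0.27, -0.78 and -0.43, negative on every array and with the smallest SD among the members whose mean lay below 0. The mean was -0.50 ± 0.26 (SD, n = 3), a level 1.41-fold lower in pfd4, with a 95% interval from -0.90 to -0.10 (unadjusted p = 0.0249, adjusted p = 0.887 in limma). With the sign of array 3 turned the mean was -0.21. All 12 values of its 4 spots were negative. On arrays 1 and 3 they lay close together, from -0.35 to -0.17 and from -0.49 to -0.36. On array 2 they ran from -1.30 to -0.03, and both ends of that range came from spots of the same transcript model, AT5G24780.2.

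VSP2 (AT5G24770), the protein-coding neighbour of VSP1, had log2 ratios of -0.94, -1.975 and 0.02. It was the lowest member on arrays 1 and 2, where 0.431% and 0.596% of loci lay lower, and stood in the middle of all loci on array 3, where 51.5% lay lower. The mean of -0.965 ± 1.00 (SD, n = 3), a level 1.95-fold lower in pfd4, was the lowest of the 7 (unadjusted p = 0.0615, adjusted p = 0.887 in limma), and the upper end of its 95% interval was 0.07. Arrays 1 and 2 share a dye orientation and only array 3 has the other, so the dyes cannot be told apart from that array. A dye term, which weighs both orientations equally, gave a mean of -0.72. Without replicate 2 the mean was -0.46, and without replicate 3 it was -1.46. The 2 spots agreed on arrays 1 and 2, with -0.72 and -1.16 and then -1.83 and -2.12, and had opposite signs on array 3, -0.18 and 0.22.

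Spots for VSP transcripts without a locus code had means of -0.20, -0.19 and 0.13, closer to 0 than the means of both VSP loci, though not on every array. U74122, annotated as the protein of At5g24770, lay at -0.05, -0.58 and 0.04, and TA27739_3702, annotated as Vsp2, at 0.21, -0.47 and -0.31. BE037695, annotated as a vegetative storage protein with no member given, lay at 0.41, -0.22 and 0.19. All 3 had their lowest value on array 2, as both VSP loci did. With U74122 and TA27739_3702 added to its spots, an alternative chosen after seeing the data, VSP2 had a mean of -0.58 instead of -0.965. VSP2 minus VSP1 was -0.67, -1.19 and 0.45 within arrays, a mean of -0.47 ± 0.84 (SD, n = 3; two-sided exact permutation p = 0.5, where 0.25 is the smallest that 3 arrays allow), so the mean difference was smaller than its SD and the test could not have shown one.

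**Figure D2:**
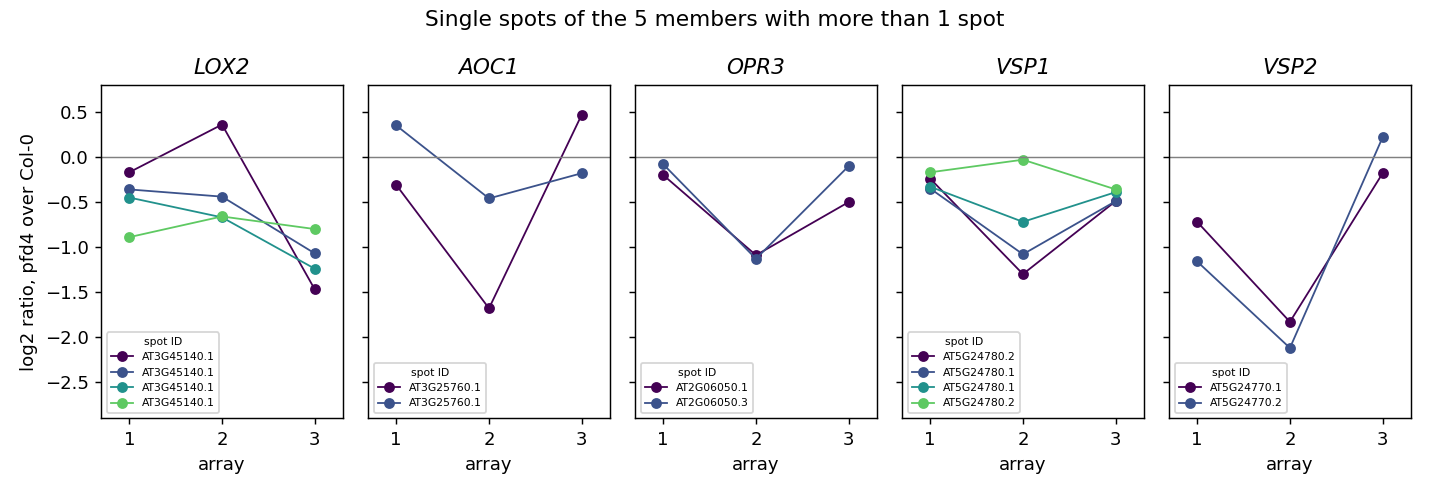
Log2 ratio of pfd4 over Col-0 (vertical axis) on arrays 1 to 3 (horizontal axis) for every spot of the 5 members with more than 1 spot; each line is 1 spot and the legends give its identifier. The OPR3 and VSP2 spots run close together, the AOC1 spots part by over 1 on array 2 (-1.68 and -0.46), and the VSP1 spots fan out on array 2 alone.

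Ordered by their means, VSP2 stood lowest, followed by LOX2, OPR3, VSP1, AOC1, AOS and AOC2. Each of the 6 steps between neighbours in that order was smaller than its own SD over the arrays, with mean steps from -0.31 (VSP2 minus LOX2) to -0.015 (AOC1 minus AOS). Neighbours in an order set by the same means are the closest pairs by construction, and 3 arrays could not have brought the exact permutation p below 0.25, so the order is a description.

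The members' values depended on the array. On array 2 all 7 lay below 0, where 47.6% of loci did, with a median of -0.78, and OPR3, AOC1 and VSP2 lay at -1 or lower, as 4.12% of loci did. On array 1, 5 of 7 lay below 0 (50.7% of loci) with a median of -0.15 and none at -1 or lower (0.307% of loci). On array 3, 4 of 7 lay below 0 (48.5% of loci) with a median of -0.30, and LOX2 alone lay at -1 or lower (1.47% of loci). Array 2 held the lowest of the 3 values for 5 of 7 members (31.2% of loci), array 1 for AOC2 (33.4%) and array 3 for LOX2 (35.4%). VSP2 had its lowest value on array 2 and its highest on array 3, while LOX2 had its highest on array 2 and its lowest on array 3, so the most negative member was not the same on every array. The synthesis genes had a median of -0.62 on array 2 and the VSP genes a mean of -1.38 there, against -0.14 and -0.61 on array 1 and -0.30 and -0.21 on array 3. When the arrays were scaled to an equal spread, the median of the 7 members was -0.48.

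**Figure D3:**
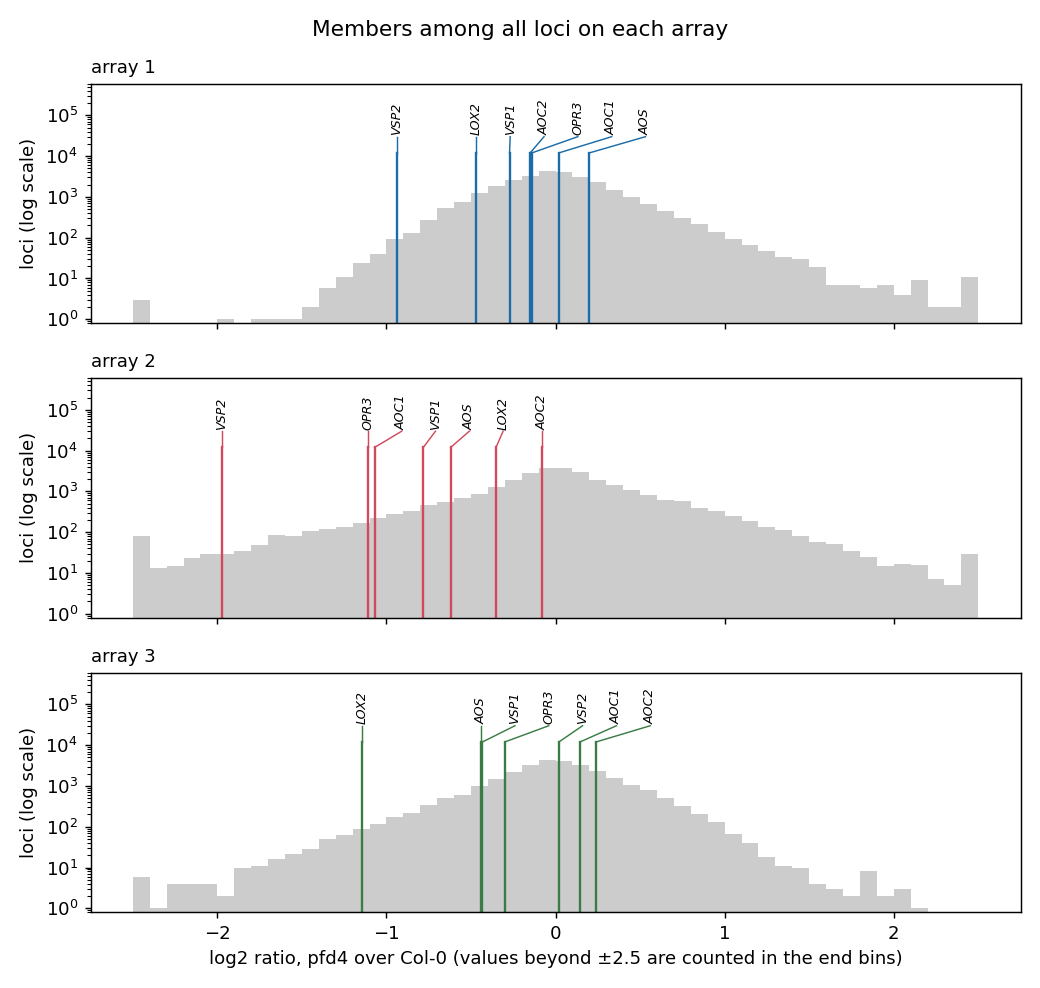
Number of loci (vertical axis, log scale) by log2 ratio of pfd4 over Col-0 (horizontal axis) on each of the 3 arrays, with the 7 members marked by lines. All 7 lie left of 0 on array 2, where the whole distribution is also the widest, VSP2 lies far left on arrays 1 and 2 only, and LOX2 stands apart on array 3.

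The rest of the pathway was read from 67 further loci in lists by role, none of which passed over all loci. Of these, 5 were lower and 0 higher at an unadjusted p under 0.05 (2.58% and 2.14% of all loci), 15 were negative on all 3 arrays (12.1%) and 5 positive (12.3%), and their median was -0.12.

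Upstream of LOX2, the 5 genes of linolenate supply had a median of -0.02, with 3 means below 0 (48.4% of all loci) and 2 above. FAD8, a plastid desaturase known as cold-inducible, was positive on every array at 0.26, 0.93 and 0.06. DAD1, the lipase that feeds jasmonate synthesis in anthers, lay at -0.15, -0.12 and -0.02. On array 2 their median was -0.01 and 3 of the 5 lay below 0 (47.6% of all loci). FAD3, a desaturase of the endoplasmic reticulum, was low there at -0.665 and above 0 on arrays 1 and 3 (0.175 and 0.32). FAD7 lay at 0.71, 0.79 and -0.49 on arrays 1, 2 and 3.

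Among 14 other synthesis genes the median was -0.04 and 9 means lay below 0 (48.4% of all loci). ACX1, an acyl-CoA oxidase of the peroxisomal beta-oxidation steps, had -0.60, -1.27 and -0.34 and a mean of -0.74 ± 0.48 (SD, n = 3; unadjusted p = 0.0209, adjusted p = 0.887 in limma). OPR1, a relative of OPR3 that is not the main OPDA reductase, had -0.67, -0.49 and -0.30 (mean -0.49 ± 0.19), and OPCL1, the ligase that activates the OPR3 product with coenzyme A, had -0.53, -0.18 and -0.41 (mean -0.37 ± 0.18). These 3 of 14 were the synthesis genes of the list that were negative on all arrays with an unadjusted p under 0.05 in limma. Of all loci, 2.58% were lower at that p. PXA1, the peroxisomal importer, was also negative on all arrays at -0.01, -0.04 and -0.07, as 12.1% of all loci were.

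The other lipoxygenases of the 13-type were not negative throughout, as LOX2 was. LOX3 had 0.18, -0.29 and -0.005, LOX4 0.49, -0.16 and -0.08, and LOX6 -0.08, 1.08 and -0.96. OPR2 lay at 0.27, 0.06 and -0.80. AIM1, a multifunctional enzyme of beta-oxidation, was not named by the rule and is given because it went opposite to ACX1 on 2 arrays, with 0.60, 1.42 and -0.62.

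Of 12 genes of jasmonate conjugation and turnover, 8 means lay below 0 (48.4% of all loci), with a median of -0.14. On array 2 the median was -0.43. JAR1, which couples jasmonic acid to isoleucine, had -0.40, -0.32 and 0.00. JRG21 (AT3G55970), a jasmonate-regulated gene, was negative on every array at -0.35, -1.68 and -0.16, as was ST2A, a sulfotransferase of hydroxyjasmonate, at -0.45, -0.93 and -0.08. Both had their lowest value on array 2, as OPR3 and VSP1 did.

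In perception and signalling, 6 of 7 means lay below 0 (48.4% of all loci) and the median was -0.26. COI1, the F-box protein of the receptor, had -0.33, -0.54 and -0.14, negative on every array (mean -0.34 ± 0.20, SD, n = 3, unadjusted p = 0.063 and adjusted p = 0.887 in limma). MYC2, the bHLH factor that acts on VSP genes, had 0.21, -1.22 and -1.08. Among the 12 JAZ repressor genes, 7 means lay below 0 (48.4% of all loci) and 5 above, with a median of -0.11. JAZ7 and JAZ8 were positive on every array (means 0.18 and 0.26), JAZ4 was negative on every array (mean -0.14), and JAZ10, often used as a marker of the hormone, had 0.05, -0.23 and -0.18. The lowest means of the list were those of JAZ1 (0.08, -1.5 and -0.74), JAZ2 (-0.67, -1.14 and 0.55) and JAZ9 (0.1, -0.93 and -0.2).

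The genes downstream are grouped by the branches known as MYC-dependent, to which the VSP genes belong, and ERF-dependent. Of 9 further genes of the MYC branch, 5 were negative on all 3 arrays (12.1% of all loci) and the median was -0.26. NAC055, a NAC factor downstream of MYC2, had -0.32, -1.76 and -1.57 (mean -1.22 ± 0.78, SD, n = 3; unadjusted p = 0.0139, adjusted p = 0.887 in limma). Its relative NAC019 had -0.16, -2.67 and -0.85, and NATA1, an acetyltransferase that makes acetylornithine, had -0.05, -2.14 and -0.79. These genes had small ratios on array 1 and their lowest on array 2.

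CORI3, a coronatine- and jasmonate-induced aminotransferase-like gene, was named after its values were seen, as the locus of the branch with the smallest p. It had -0.67, -1.48 and -0.64, a mean of -0.93 ± 0.48 (SD, n = 3; unadjusted p = 0.009, adjusted p = 0.887 in limma). TAT3, another aminotransferase gene of this branch, lay at 0.04, 0.085 and 0.025 and CLH1 at 0.01, 0.02 and -0.11. Well-known jasmonate-inducible genes were thus found at 0 as well as far below it. Brightness over background is unknown, so a ratio at 0 can come from a spot without signal as well as from equal levels.

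In the ERF branch 7 of 8 means lay below 0 (48.4% of all loci), with a median of -0.40. The medians were -0.25, -0.70 and 0.04 on arrays 1, 2 and 3. PDF1.2 (0.31, -0.35 and -0.54), PDF1.2b (-0.35, -1.37 and 0.05) and PDF1.2c (-0.45, -1.41 and 0.1) count as separate loci there. Whether their spots take up each other's transcript was not tested. HCHIB, a basic chitinase gene, was negative on every array at -0.465, -0.935 and -0.065. ORA59, the ERF factor that drives the branch, was positive on every array at 0.20, 0.57 and 0.29 (mean 0.35 ± 0.19, SD, n = 3; unadjusted p = 0.053 and adjusted p = 0.887 in limma). Whether the branches differed from each other was not tested.

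**Figure D4:**
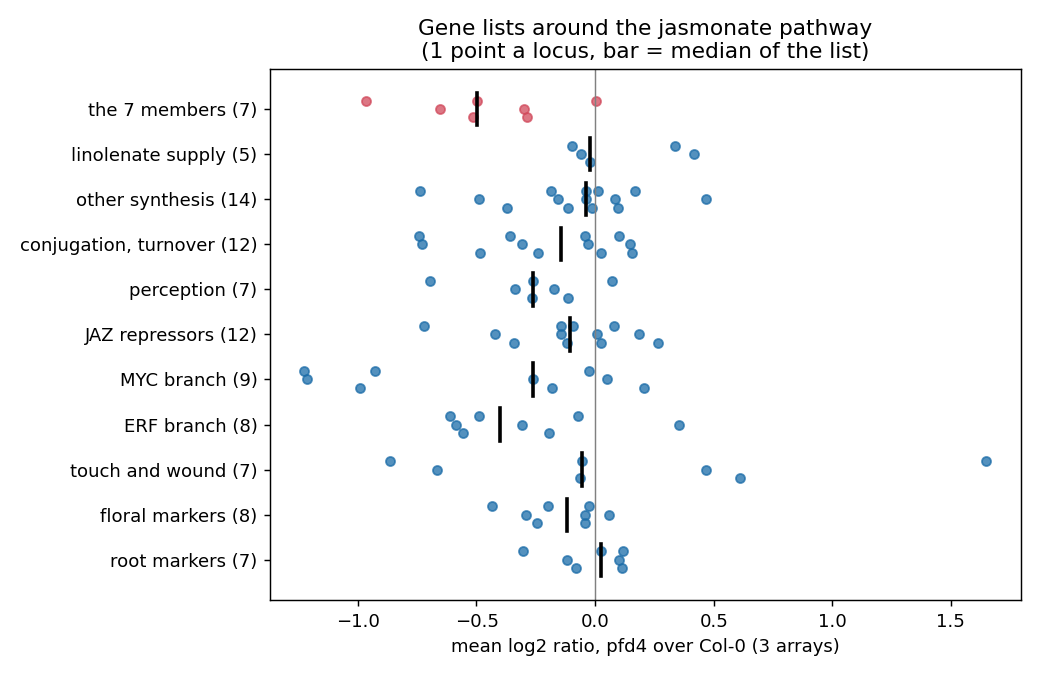
Mean log2 ratio of pfd4 over Col-0 over 3 arrays (horizontal axis) for each locus, in rows by list with the number of loci in brackets; black bars are list medians. The 7 members have the lowest median (-0.50), and the MYC branch holds 4 loci below -0.9 beside others at 0. Members and lists were chosen with earlier results of these data known, so the ranking of the medians is a description.

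**Figure D5:**
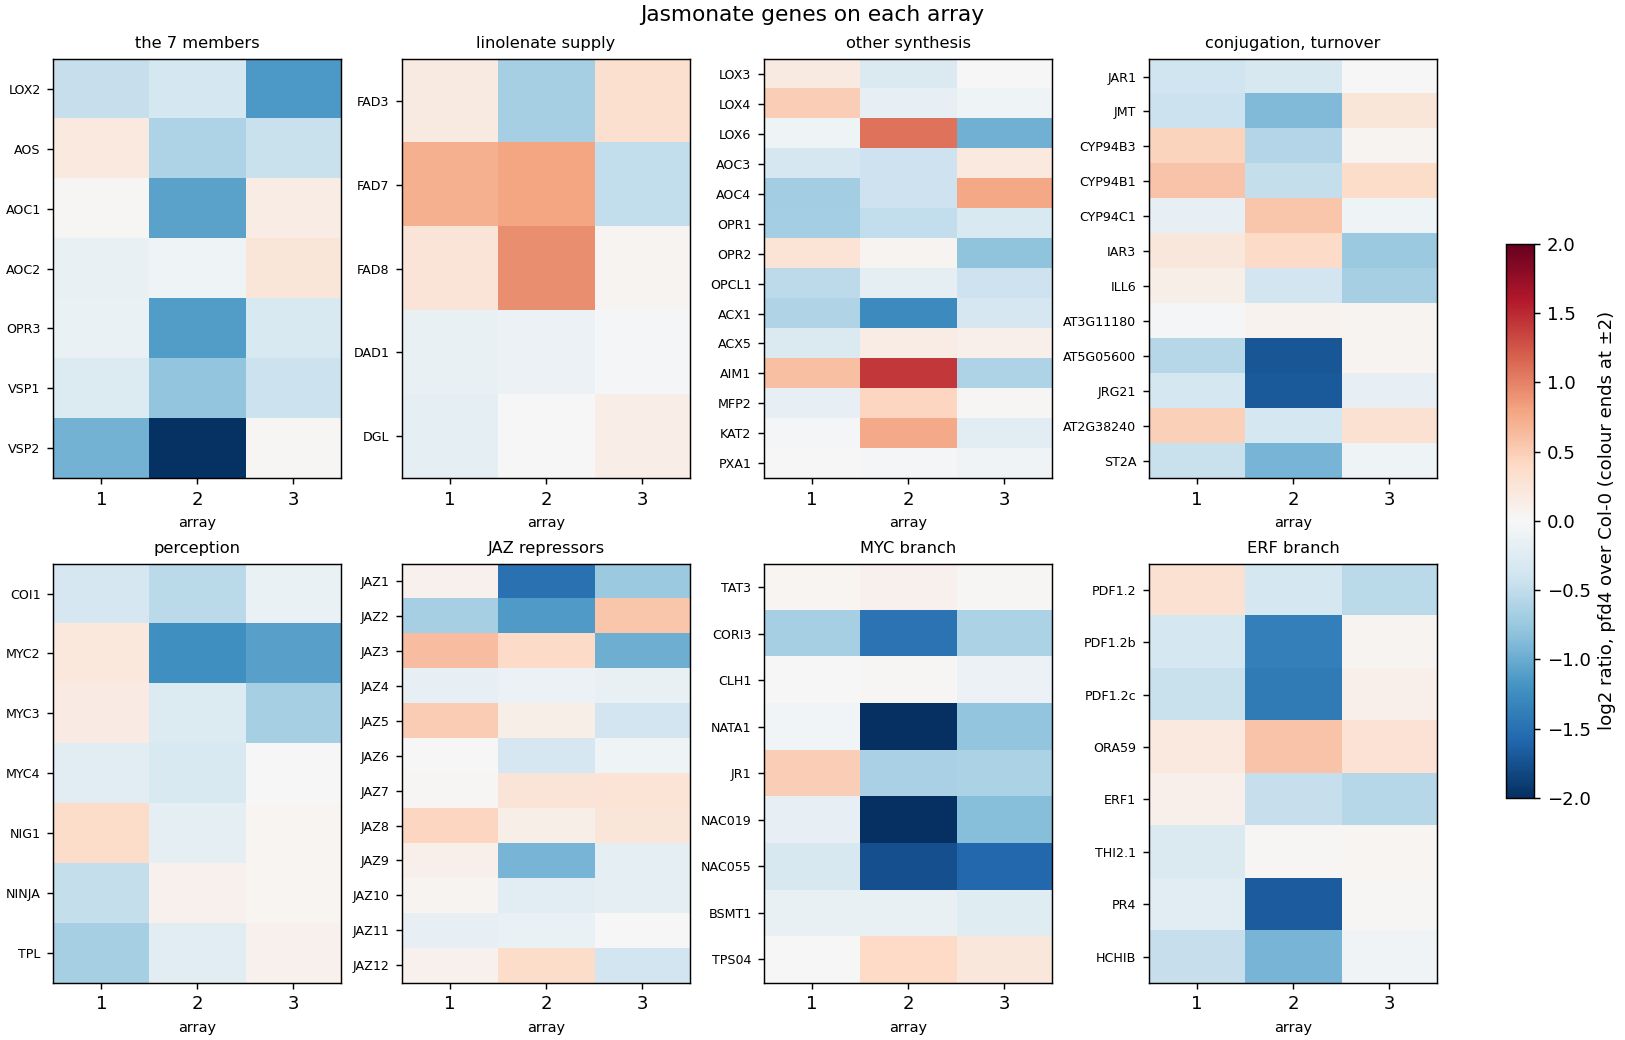
Log2 ratio of pfd4 over Col-0 on each of the 3 arrays (columns) for the members and 67 pathway loci (rows), blue below 0 and red above, with the colour ending at ±2. The strongest blue stands in the array 2 column, in VSP2, NAC019, NAC055 and NATA1 among others, while FAD8 and ORA59 are red in every column.

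Lists of other organs and of mechanical stress were read beside the members, because VSP genes are also expressed in flowers and answer to wounding. Of 8 floral markers, 7 means lay below 0 (48.4% of all loci) and 3 were negative on all arrays (12.1%). Their median was -0.12, and -0.23 on array 2. AP1 (mean -0.44), AG (mean -0.29) and AP3 (mean -0.20) were the 3 negative on all arrays. Of 7 root markers, 3 means lay below 0 (48.4% of all loci) and the median was 0.02. Among 7 touch and wound genes, 4 means lay below 0 (48.4% of all loci) and the median was -0.06. WRKY33 had the lowest mean (0.13, -0.84 and -1.88), and ZAT10 was negative on every array (-0.22, -1.72 and -0.06). TCH4 (1.48, 3.19 and 0.28) and TCH2 (0.57, 0.73 and 0.10) were positive on every array, where LOX2, OPR3 and VSP1 were negative on every array. The part of organ make-up or handling in the members' values was not tested.

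The 5 loci outside all lists with ratios most like the mean of the members (-0.25, -0.86 and -0.27 on arrays 1, 2 and 3) were found by the Euclidean distance over the 3 arrays. They were NRB4 (AT1G15780; -0.28, -0.88 and -0.27, distance 0.0387), DRIP1 (distance 0.0511), AT2G35290 (distance 0.0541), RLK (AT5G67280; distance 0.0622) and AT2G19146 (distance 0.0631). None of them passed over all loci (adjusted p = 0.887 for each in limma).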

How the data were processed

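The authors deposited a normalized log2 ratio for every spot of each array. Limma is named in the submitters' processing notes; which version and which settings for background and normalization were chosen is not stated there. Base 2 was assumed, as limma's convention. Both deposited tables held equal values at all 45220 spots once matched by slide position. Signal intensities were not used here, so brightness over background is unknown, no dim spots were filtered, and the number of arrays limits the precision.

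The 38613 spots with a locus code were averaged per locus and array (29030 loci, no missing value); 6607 controls and other transcripts were left out. Each locus was tested with limma 3.58.1 in R 4.3.3 (lmFit and eBayes, mean of 3 ratios against 0, two-sided, Benjamini-Hochberg over all loci, threshold 0.05; 2 residual and 2.68 prior degrees of freedom). Within-array differences used exact sign-change permutation in scipy 1.17.1. Errors are SDs over the 3 arrays, intervals 95%. The fit was also run on simulated ratios. These were independent between arrays, unlike the measured ratios, so no result here rests on that run. RefSeq symbols (assembly TAIR10.1) or the deposited annotation carried 91 of 96 listed symbols; the others are named as that table names them. No coordinates are printed, since no source used here names the array's genome build.

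Members and lists were chosen with earlier results of these data known. By rule the text names all members, up to 3 loci per list and direction with 1 sign on all arrays, the 5 most alike loci and 10 pathway genes of known role. Listed loci named outside this rule were AOC4, FAD3, FAD7, PXA1, AIM1, CORI3, CLH1, PDF1.2, PDF1.2b, PDF1.2c, JAZ1, JAZ2, JAZ9 and WRKY33. Alternatives were leaving out each replicate, array weights, a dye term, array 3 turned, equal array spread, median or first spot, single spots and the other deposited table.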

Additional observations from a re-analysis of the deposited data

How the results depend on the processing

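With 12 alternatives beside the reported fit, no member and no locus passed an adjusted p of 0.05 in limma (11 alternatives for the count over all loci, since the added transcripts concern LOX2 and VSP2 only). At an unadjusted p under 0.05 the count over all loci was 1372 as reported, 476 without replicate 2, 3724 without replicate 3 and 3878 with array 3 turned; the cause was not tested. OPR3 and VSP1 stayed below 0 under the 10 alternatives that give a value per locus, and VSP2 under 11, with means from -0.705 to -0.22, from -0.68 to -0.21 and from -1.46 to -0.46. Turning the sign of array 3 gave 0.11 for LOX2, 0.0067 for AOS and -0.16 for AOC2 (0.00 as reported). That orientation goes against PFD4, whose ratio on array 3 was -2.17 and would become positive. AOC2 was also below 0 with array weights (-0.0401) and ranged from -0.115 to 0.08 when replicates were left out in turn, and AOC1 from -0.525 to 0.0825. The median of the members ranged from -0.61 to -0.22 when replicates were left out and was -0.21 with array 3 turned. Fitted one by one, the 4 spots of VSP1 had means from -0.68 to -0.19, and the medians of the members kept their sign. The series' value table changed nothing. The ratio within each array already pairs the genotypes, so the test of the mean ratio against 0 is itself the paired analysis.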

Other observations

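Further loci whose deposited annotation names the pathway were looked up after the values of the members had been seen. AT1G17990 and AT1G18020, both annotated as 12-oxophytodienoate reductases, had log2 ratios of -1.11, 0.35 and -1.57 and of -1.005, 0.41 and -1.28 on arrays 1, 2 and 3. Whether the spots of these loci take up each other's transcript was not tested. Both loci were negative on arrays 1 and 3 and positive on array 2, where OPR3 had its lowest value (-1.11). The other loci of this annotation lacked that pattern: AT1G09400 lay at 0.02, 0.03 and -0.01, and AT5G54206, annotated as reductase-related, at -0.28, -0.25 and 0.17. LOX1, a lipoxygenase of the 9-type that does not lead to jasmonate, was negative on every array at -0.34, -0.22 and -0.36 (unadjusted p = 0.0539, adjusted p = 0.887 in limma), and LOX5, of the same type, lay at -0.09, 0.04 and -0.665. CEJ1 (AT3G50260), an ERF factor named for its regulation by ethylene and jasmonate, lay at 0.00, -2.68 and -1.02.

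Loci annotated as class B acid phosphatases, the family of the VSP proteins, did not share one pattern. AT5G44020, with 3 spots, had -1.11, 1.07 and 0.46, AT1G04040 had 0.15, 1.5 and -0.61, and AT2G38600 was positive on every array at 0.35, 0.24 and 0.17. AT2G39920 had 0.06, -0.39 and -0.66, AT4G29270 had 0.11, -0.66 and -0.06, and AT4G29260 had -0.07, 0.01 and 0.26. The transcript TA28507_3702, annotated as a jasmonate-inducible protein isolog, had 0.27, -1.66 and 0.86 on one spot and 0.28, -1.84 and 0.69 on the other. BP799262, with a like annotation, had 0.42, -2.36 and 0.68. Other transcripts annotated as such isologs stayed near 0 on array 2, BP799771 at 0.04, N38027 at -0.15 and TC313951 at 0.19. None of these loci and transcripts was named in advance, and transcripts without a locus code were not tested.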
